A study of Mus musculus with 10 samples.

Results

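The nuclear genes for the subunits of respiratory complexes II, III, IV and V were followed across 10 Affymetrix arrays of mouse heart. A gene was included when its probe set carried a single symbol and that symbol was Sdha, Sdhb, Sdhc, Sdhd or Cyc1, or began with Uqcr, with Cox4 to Cox8 or with Atp5. Where a gene had several probe sets, the brightest one on average across the 10 arrays stood for it. This gave 47 of the 19938 genes measured by probe sets with 1 symbol, namely 4 of complex II, 9 of complex III, 17 of complex IV and 17 of complex V. Symbols are those of the array's annotation, in which the subunits of complex V still carry the older Atp5 names. RNA came from ventricular cardiomyocytes, the contractile cells of the lower heart chambers, or from whole hearts. The mice were wild type (WT) or carried a knockdown of VAChT, the vesicular acetylcholine transporter. The knockdown animals are called KD here; the series title writes VAChT KDHOM, and the labels give no allele, promoter or driver. Cardiomyocytes were measured on 6 arrays, 3 for each genotype, and hearts on 4, 2 for each genotype. All mice were male C57BL/6 of 3 months, no treatment was given, and each array held the RNA of 2 samples pooled. Nothing says beyond this that arrays stand for separate animals, so the spread behind each p-value is that of the arrays and could in part be technical.

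The respiratory chain passes electrons from fuel molecules to oxygen across the inner mitochondrial membrane and pumps protons on the way. Complex II, succinate dehydrogenase, also belongs to the citric acid cycle and feeds electrons to ubiquinone without pumping. Complex III hands them to cytochrome c, complex IV reduces oxygen, and complex V, ATP synthase, uses the proton gradient to make ATP. Heart muscle depends on this route for nearly all its ATP, and its mitochondria carry muscle forms of several small complex IV subunits in place of the ubiquitous forms. The subunits encoded by mitochondrial DNA are not among the genes described.

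The log2 values of an array had a median of 5.82 to 5.93 for cardiomyocytes and 7.25 to 7.31 for hearts. The 95% interval of a member's difference between genotypes extended, at the median, 0.23 above and below it in cardiomyocytes and 0.28 in hearts, so the small number of arrays limited the precision. Slc18a3, which encodes VAChT, read 6.06, 6.37 and 6.04 in WT cardiomyocytes and 6.22, 6.52 and 6.21 in KD. In the heart samples the values were 7.34 and 7.72 for WT hearts and 7.31 and 7.84 for KD hearts. The gene was thus not lower in KD in either kind of sample, and where its probes lie relative to the altered part is not known, so this neither bears out nor contradicts the labels. Mean levels of 10 ventricular muscle markers were 12.9 to 13.0 in the cardiomyocyte arrays and 13.0 to 13.2 in the heart arrays. Single arrays stood apart. In KD heart 1 the mean over 9 thymocyte markers was 9.63, against 6.52 to 6.76 in the other 3 heart arrays, and in KD heart 2 the mean over 6 atrial muscle markers was 9.15, against 10.1 to 10.4. In WT cardiomyocyte array 3 the atrial mean was 6.74, against 7.23 to 8.20 in the other 5, and many respiratory genes were low on that array, as described below. The part of these 3 arrays' deviations in the results was not tested beyond the values given without them.

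None of the 47 genes differed between KD and WT at an adjusted p under 0.05 (limma, Benjamini-Hochberg over all genes), in cardiomyocytes or in hearts. The same held for all genes, with 0% called in either comparison. Within that null result most members had small offsets, which ran opposite ways in the 2 kinds of sample on the values as deposited. In cardiomyocytes 42 of the 47 members had a higher KD than WT mean, with a median log2 difference of 0.077, whereas the median over all genes was -0.0001. In hearts 40 of the 47 had a lower KD mean, with a median of -0.097, against 0.0076 over all genes. In all, 36 members were higher in KD cardiomyocytes and lower in KD hearts, a combination found in 24.0% of all genes. All genes are not a like baseline here. As described below, 40 members were among the brightest 10% in hearts, where 73.2% of all genes were lower. With the trend of the heart difference on signal level taken out, 25 of the 47 were lower in hearts. Without WT cardiomyocyte array 3, 29 of the 47 were higher in cardiomyocytes. The 47 genes share each array, so their number adds no replication. In bulk RNA, fewer muscle cells and less RNA per muscle cell cannot be told apart.

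**Figure D1:**
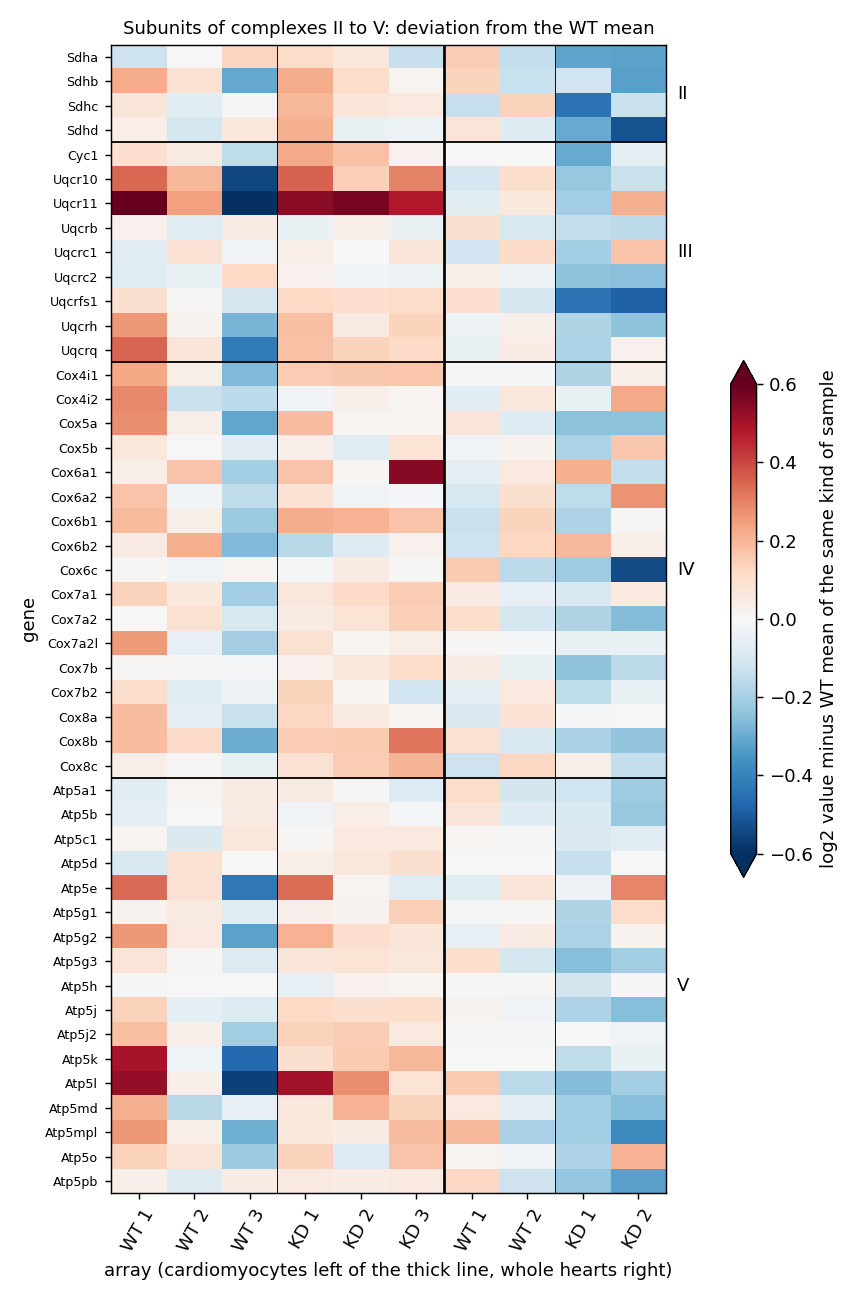
Log2 value of each of the 47 genes (rows, by complex) on each of the 10 arrays (columns) minus the WT mean of the same kind of sample; red is higher and blue is lower than the WT mean. WT cardiomyocyte array 3 is blue for many genes of complexes III, IV and V, and both KD heart arrays are blue for all 4 genes of complex II.

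Against the unadjusted p of limma, 0 of the 47 members were under 0.05 in cardiomyocytes in either direction, where 0.988% of all genes were under it and higher and 1.11% under it and lower. In 3 members, Uqcrfs1, Cox7b and Cox8c, all KD cardiomyocyte arrays lay above all WT arrays, and in 0 members all lay below; the shares over all genes were 2.99% and 3.21%. The count of 0 became 10 when WT array 1 was left out and 1 when KD array 2 was; leaving out any other cardiomyocyte array kept it at 0. In hearts 8 members had an unadjusted p under 0.05, all of them lower in KD (Sdha, Sdhc, Sdhd, Uqcrc2, Uqcrfs1, Cox6c, Atp5g3 and Atp5pb). Over all genes 2.49% were lower at that level and 2.44% higher. Both KD heart arrays lay below both WT heart arrays in 26 members and above them in 0, against 15.4% and 14.2% of all genes. The count of 8 became 2 without WT heart 1, 10 without WT heart 2, 4 without KD heart 1 and 2 without KD heart 2, where the lone array left in a group was assumed to vary like the others. With a smooth trend of the heart difference on signal level taken out, or after quantile normalization of all arrays, the 8 became 2, Sdhd and Uqcrfs1. Under the same settings the 26 members without overlap became 9 and 9, with 4 and 2 above, against 16.2% and 16.6% of all genes below and 11.9% and 12.7% above.

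**Figure D2:**
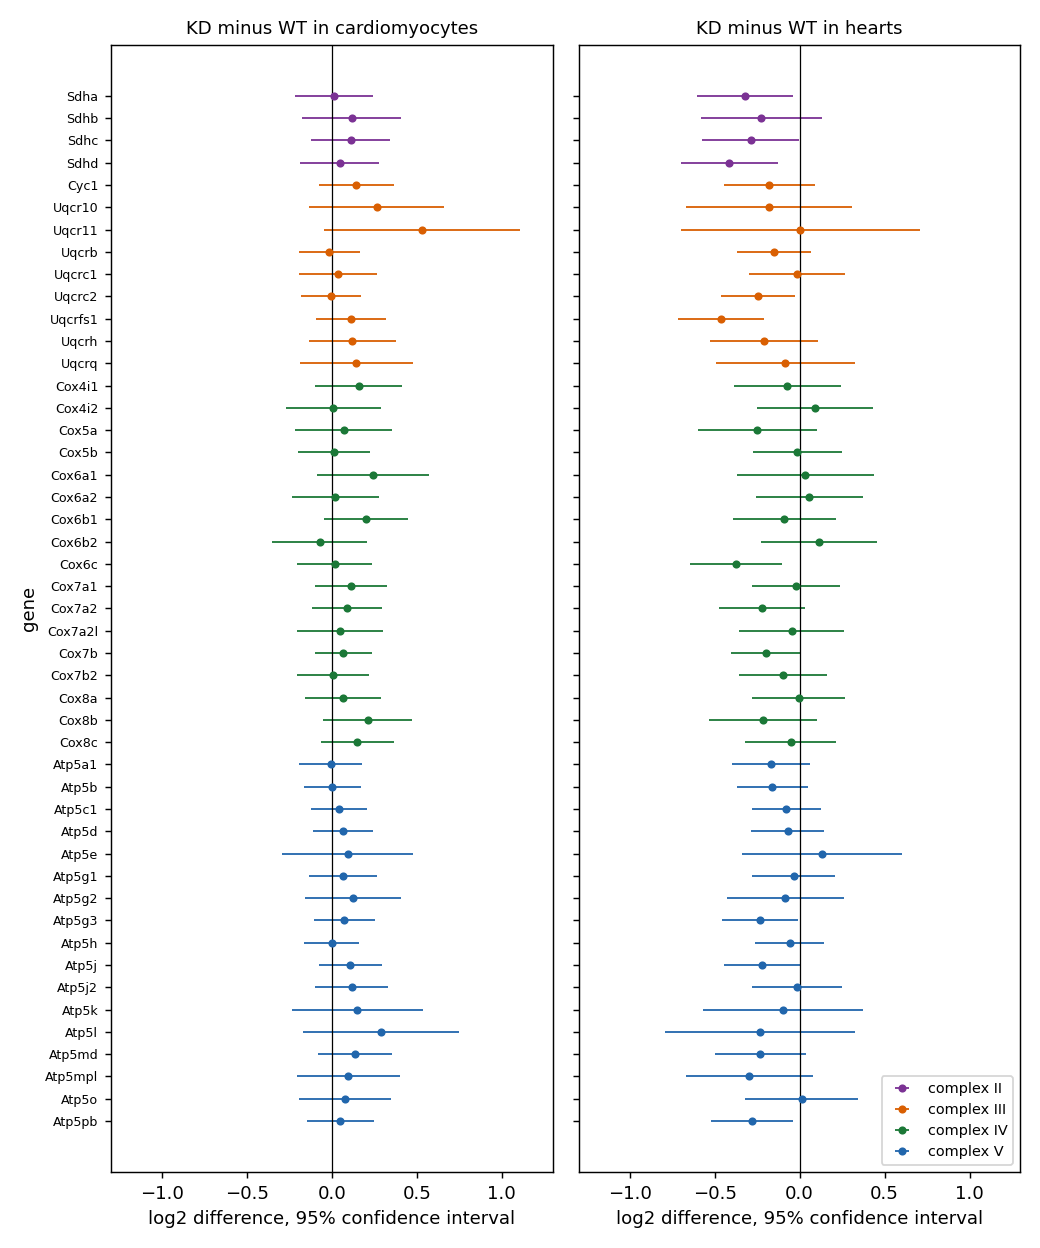
KD minus WT log2 difference of each gene with its 95% confidence interval from limma, in cardiomyocytes (3 against 3 arrays, left) and in hearts (2 against 2, right), coloured by complex. Most points lie right of 0 on the left (median 0.077), and left of 0 on the right (median -0.097), and in cardiomyocytes every interval includes 0.

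The size of the cardiomyocyte offset turned on single WT arrays. WT array 3 was the lowest of the 6 cardiomyocyte arrays in 31 of the 47 members. Its value minus the mean of WT arrays 1 and 2 placed 6 members among the lowest 1% of all genes and 16 among the lowest 5%. The 6 were Uqcr11 (-1.27), Atp5l (-0.84), Uqcr10 (-0.82), Atp5k (-0.70), Atp5e (-0.64) and Uqcrq (-0.63), which encode small subunits of complexes III and V. Other members went the opposite way: Sdha, the flavoprotein of complex II, was 0.20 above the mean of the other WT arrays and Uqcrc2, a core protein of complex III, was 0.18 above it. Without WT array 3 the median KD minus WT difference in cardiomyocytes was 0.026, with 29 of 47 higher, and without WT array 1 it was 0.156 with 40 of 47 higher. The 36 complex I subunits had a median of -0.18 on WT array 3 relative to WT arrays 1 and 2, with 33 of 36 lower.

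The heart differences moved with signal level. Of the 47 members 40 were among the brightest 10% of all genes in hearts, and in that 10% the median KD minus WT difference of all genes was -0.090, with 73.2% of them lower. The 40 members among them had a median of -0.172, and 37 were lower. When the trend of the heart difference on mean signal, fitted over all genes, was taken out, the median over the 47 members became -0.013 with 25 lower. By complex the medians without the trend were -0.173 for complex II, -0.044 for complex III, 0.036 for complex IV and 0.005 for complex V, so the sign turned in complexes IV and V. Quantile normalization of all 10 arrays gave -0.177, -0.031, 0.042 and -0.017 in the same order, and a median of -0.026 over all members with 27 lower. Complex II alone had all of its genes lower under both treatments (4 of 4), which is a description of 4 genes and not a test. The 10 ventricular muscle markers were also all lower in KD hearts, with a median of -0.13, none of them at an unadjusted p under 0.05. Whether the share of muscle RNA, the thymocyte and atrial signal or the trend on signal level takes part in the members' values was not tested beyond the values given here.

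**Figure D3:**
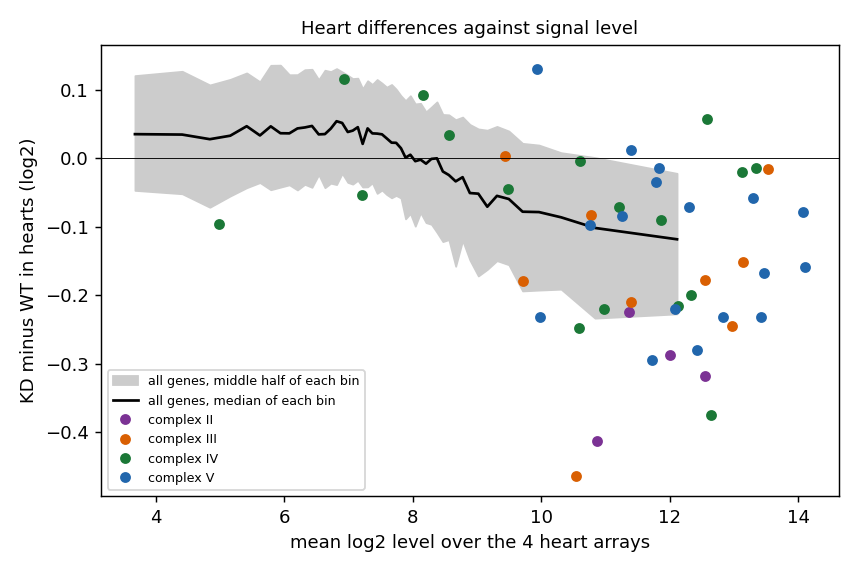
KD minus WT log2 difference in hearts against the mean log2 level over the 4 heart arrays. The line and grey band are the median and the interquartile range of all 19938 genes in bins of mean level, and coloured points are the 47 members by complex. All-gene values slope downward with signal, to -0.090 in the brightest 10%, where 40 members lie.

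Promoter windows are printed for 5 members, none of which was called. In Uqcrfs1 and Cox7b the KD and WT arrays did not overlap in either kind of sample, and Uqcr11 had the largest cardiomyocyte difference. Cox8b and Cox8a are a muscle and ubiquitous pair. Each window is the 250 bases before the annotated start, 5′ to 3′ on the gene's strand. The windows are from RefSeq on GRCm38.p6, in which 35 of the 47 members were found by symbol. The windows are chr13:30545317-30545566 (Uqcrfs1, minus strand), chr10:80406822-80407071 (Uqcr11, minus), chrX:106015450-106015699 (Cox7b, plus), chr7:140900447-140900696 (Cox8b, minus) and chr19:7217617-7217866 (Cox8a, minus). Capitals mark the letters of any motif searched for.
Uqcrfs1: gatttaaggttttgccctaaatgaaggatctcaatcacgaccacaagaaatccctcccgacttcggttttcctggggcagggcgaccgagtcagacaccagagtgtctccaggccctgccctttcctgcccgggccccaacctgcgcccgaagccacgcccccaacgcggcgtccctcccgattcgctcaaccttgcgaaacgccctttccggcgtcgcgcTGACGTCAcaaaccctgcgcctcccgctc
Uqcr11: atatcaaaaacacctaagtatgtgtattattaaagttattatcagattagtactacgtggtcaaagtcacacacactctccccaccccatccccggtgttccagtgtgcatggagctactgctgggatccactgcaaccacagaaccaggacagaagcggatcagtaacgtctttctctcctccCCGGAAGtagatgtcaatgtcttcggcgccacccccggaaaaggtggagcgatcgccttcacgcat
Cox7b: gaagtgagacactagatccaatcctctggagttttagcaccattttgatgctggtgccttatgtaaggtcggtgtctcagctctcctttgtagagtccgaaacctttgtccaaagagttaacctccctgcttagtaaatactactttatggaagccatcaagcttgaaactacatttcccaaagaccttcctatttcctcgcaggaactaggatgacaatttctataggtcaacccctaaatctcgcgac
Cox8b: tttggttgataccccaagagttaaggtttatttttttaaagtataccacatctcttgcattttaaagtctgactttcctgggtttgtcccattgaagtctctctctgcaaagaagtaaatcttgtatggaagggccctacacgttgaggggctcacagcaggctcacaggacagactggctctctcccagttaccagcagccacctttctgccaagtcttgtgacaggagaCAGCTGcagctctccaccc
Cox8a: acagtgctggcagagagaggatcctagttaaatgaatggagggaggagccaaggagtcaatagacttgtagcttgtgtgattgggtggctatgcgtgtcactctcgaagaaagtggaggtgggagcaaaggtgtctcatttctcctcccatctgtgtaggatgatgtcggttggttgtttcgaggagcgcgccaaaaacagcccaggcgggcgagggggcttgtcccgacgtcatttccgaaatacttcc

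The motifs were searched as exact letters on both strands, and each printed window held at most 1 match. In Uqcrfs1 the capitals are the cyclic AMP response element TGACGTCA, 29 to 22 bases before the start. In Uqcr11 they are CCGGAAG, a core of the sites bound by GABPA, an ETS factor of mitochondrial genes. In Cox8b they are CAGCTG, an E-box of muscle factors, 19 to 14 bases before the start. Cox7b and Cox8a held none of the motifs. Among the 35 members with a window, CCGGAAG was found in 9, against 7.83% of 27025 genes. GCATGCGC, bound by NRF1, was found in 5 (Sdhb, Cox6a1, Atp5g2, Atp5k and Atp5l), against 2.56%. CAAGGTCA, bound by estrogen-related receptors, was found in 2 (Atp5g3 and Atp5l), against 1.51%, and CAGCTG in 2 (Cox8b and Atp5b), against 14.7%. TGACGTCA was found in Uqcrfs1 alone (1.77% of genes) and AAGATGGC, bound by YY1, in Atp5j alone (1.83%). TATAAA was found in 3 (14.3%) and the MEF2 letters CTAAAAATA in 0 (0.537%). A match of letters describes the sequence and does not show a bound site.

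Complex II had the lowest median difference of the 4 complexes in hearts, -0.303, with all 4 genes lower in KD. Sdha, the flavin-bearing catalytic subunit, read 12.86 and 12.57 in the WT hearts and 12.39 and 12.39 in the KD hearts. Both KD arrays were below both WT arrays, a log2 difference of -0.32 (SE 0.13; limma p 0.0302, adjusted 0.95). Sdhd, a membrane anchor that binds ubiquinone, read 11.15 and 11.00 in WT and 10.77 and 10.55 in KD, again without overlap, a difference of -0.41 (SE 0.13; limma p 0.00794, adjusted 0.95). That is 1.33-fold lower, and with the signal trend taken out the difference was -0.31. The other genes of the complex moved more without the trend, Sdha to -0.18 (limma p 0.182), Sdhc to -0.16 (limma p 0.245) and Sdhb to -0.11. Quantile normalization gave -0.15, -0.20 and -0.12 in that order. Sdhc, the other membrane anchor, read 12.00 and 12.28 in WT and 11.70 and 12.01 in KD, so KD 2 lay just above WT 1 and the groups overlapped; its difference was -0.29 (SE 0.13; limma p 0.0478, adjusted 1.00). Sdhb, the iron-sulfur subunit, read 11.61 and 11.34 in WT and 11.36 and 11.15 in KD, a difference of -0.22 (SE 0.16) with overlap.

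In cardiomyocytes the 4 complex II genes differed by 0.01 to 0.12, and none separated the genotypes. Their median of 0.078 was 0.013 without KD array 1. Sdhc read 12.16, 12.02 and 12.08 in WT and 12.29, 12.16 and 12.15 in KD, a difference of 0.11 (SE 0.11). Its top KD array stood above all WT arrays and the other KD arrays just below WT 1. Sdhb read 12.24, 12.10 and 11.71 in WT and 12.24, 12.13 and 12.04 in KD, a difference of 0.12 (SE 0.13). Here WT 3 was the low array, and without it the difference was -0.04. Sdha (12.23 ± 0.13 in WT and 12.24 ± 0.13 in KD; SD, n = 3 each) and Sdhd (11.06 ± 0.091 and 11.11 ± 0.14) differed by less than the spread between arrays.

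Complex III held both the largest heart difference and the largest cardiomyocyte difference among the members, in different genes. Uqcrfs1 encodes the Rieske iron-sulfur protein, which carries electrons from ubiquinol to cytochrome c1. In hearts it read 10.88 and 10.67 in WT and 10.33 and 10.29 in KD, with no overlap. The difference was -0.46 (SE 0.12, 95% interval -0.72 to -0.21), or 1.38-fold lower, with an adjusted limma p of 0.94 (unadjusted 0.00168). With the signal trend taken out it was -0.37, and after quantile normalization -0.41. In cardiomyocytes Uqcrfs1 read 10.31, 10.22 and 10.11 in WT and 10.33, 10.31 and 10.32 in KD, a difference of 0.11 (SE 0.10) in which the lowest KD array cleared the highest WT array only narrowly. Uqcrc2, a core protein, read 13.12 and 13.05 in WT hearts and 12.85 and 12.84 in KD hearts, without overlap, a difference of -0.24 (SE 0.10; limma p 0.0295, adjusted 0.95). It was -0.11 (limma p 0.303) without the signal trend and -0.12 after quantile normalization. In cardiomyocytes Uqcrc2 differed by -0.01 (SE 0.08). Its partner core protein Uqcrc1 differed by -0.02 in hearts and 0.04 in cardiomyocytes. Cyc1, cytochrome c1, differed by -0.18 in hearts, where both KD arrays lay below the WT arrays, and by 0.14 in cardiomyocytes, where the groups overlapped; the heart value was -0.044 without the trend.

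Uqcr11 and Uqcr10, small accessory subunits of complex III, had the largest positive differences of the complex in cardiomyocytes, and both rested on WT array 3. Uqcr11 read 12.46, 12.11 and 11.02 in WT and 12.40, 12.43 and 12.34 in KD. WT 1 was the highest of the 6 arrays and WT 3 by far the lowest, so the groups overlapped. The difference was 0.53 (SE 0.27, 95% interval -0.04 to 1.11; limma p 0.0678, adjusted 1.00), and 0.11 without WT 3. A second probe set of Uqcr11 gave 0.52. In hearts Uqcr11 read 9.37 and 9.50 in WT and 9.22 and 9.65 in KD, a difference of 0.00 (0.004; SE 0.33). Uqcr10 read 9.94, 9.79 and 9.05 in WT cardiomyocytes and 9.95, 9.74 and 9.89 in KD, a difference of 0.26 (SE 0.18) that became -0.01 without WT 3. Uqcrq, Uqcrh and Uqcrb, the other accessory subunits, differed by 0.14, 0.12 and -0.01 in cardiomyocytes and by -0.08, -0.21 and -0.15 in hearts, or 0.019, -0.092 and -0.013 without the trend.

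Complex IV had a heart median of -0.053, with 13 of 17 genes lower in KD (0.036 and 7 of 17 without the signal trend), and a cardiomyocyte median of 0.068 with 16 of 17 higher. The heart median was -0.15 without KD heart 2, and the cardiomyocyte median was 0.16 without WT array 1. Cox6c, an accessory subunit of the membrane part, read 12.99 and 12.67 in WT hearts and 12.62 and 12.29 in KD hearts. Every KD array was below every WT array, KD 1 only just below WT 2, and the difference was -0.38 (SE 0.13; limma p 0.0106, adjusted 0.95). A second probe set gave -0.41, and with the signal trend taken out the difference was -0.24 (limma p 0.0777). In cardiomyocytes Cox6c was level, at 13.61 ± 0.020 in WT and 13.63 ± 0.029 in KD (SD, n = 3 each). Cox7b read 12.47 and 12.38 in WT hearts and 12.18 and 12.27 in KD hearts, a difference of -0.20 (SE 0.09) without overlap. This was -0.069 without the signal trend and -0.098 after quantile normalization. In cardiomyocytes it read 13.14, 13.14 and 13.12 in WT and 13.16, 13.20 and 13.25 in KD, a difference of 0.07 (SE 0.08), also without overlap. Cox7b and Uqcrfs1 were the 2 members whose KD arrays all lay above WT in cardiomyocytes and all below WT in hearts, a pattern found in 0.466% of all genes. Without the signal trend in hearts Uqcrfs1 alone among the members had it, and after quantile normalization 0 members did.

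In cardiomyocytes the complex IV genes with the smallest p were Cox6b1, which lies on the cytochrome c side of the complex, and Cox8b, the muscle form of the smallest subunit. Cox6b1 read 12.56, 12.40 and 12.14 in WT and 12.59, 12.58 and 12.54 in KD. KD 3 lay just below WT 1, so the groups overlapped, and the difference was 0.20 (SE 0.11; limma p 0.104), or 0.09 without WT 3. Cox8b read 13.04, 12.97 and 12.56 in WT and 13.01, 13.02 and 13.18 in KD, a difference of 0.21 (SE 0.12; limma p 0.104), or 0.06 without WT 3. Cox5a and Cox5b, accessory subunits, differed by 0.07 and 0.01 in cardiomyocytes and by -0.25 and -0.01 in hearts (-0.15 and 0.13 without the trend). Cox7a2l, a relative of Cox7a2, differed by 0.05 in cardiomyocytes and -0.05 in hearts. The testis forms Cox6b2, Cox7b2 and Cox8c read low, at means of 5.74, 3.73 and 5.02 in WT cardiomyocytes and 6.87, 5.04 and 7.23 in WT hearts. The files carry no detection calls, so presence of their RNA cannot be judged. Cox8c, the third gene without overlap in cardiomyocytes, read 5.06, 5.03 and 4.98 in WT and 5.12, 5.18 and 5.23 in KD, all under the array medians of 5.82 to 5.93.

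Complex V had 15 of 17 genes lower in KD hearts, with a median of -0.097 (0.005 without the signal trend). In 12 of them the arrays did not overlap, where 15.4% of all genes had both KD arrays below WT. Over all 47 members such genes fell from 26 to 9 without the signal trend. The complex V median was -0.18 without KD heart 2. Atp5pb, the stator subunit b, read 12.70 and 12.44 in WT hearts and 12.34 and 12.24 in KD hearts. Both KD arrays were below both WT arrays, and the difference was -0.28 (SE 0.11; limma p 0.0258, adjusted 0.95). Atp5g3 is 1 of 3 genes that encode the same mature c subunit of the membrane rotor. It read 13.05 and 12.84 in WT and 12.69 and 12.74 in KD, a difference of -0.23 (SE 0.10; limma p 0.043, adjusted 0.997), again without overlap. Its paralogs Atp5g1 and Atp5g2 differed by -0.03 and -0.08 in hearts, with overlap. The catalytic subunits Atp5a1 (alpha) and Atp5b (beta) differed by -0.17 (SE 0.11) and -0.16 (SE 0.10) in hearts, both without overlap, and by -0.01 and 0.00 (0.004) in cardiomyocytes. Without the signal trend the heart values were -0.026 and -0.013. Atp5c1, the central stalk subunit gamma, differed by -0.08 in hearts and 0.04 in cardiomyocytes. With the signal trend taken out, Atp5pb differed by -0.15 (limma p 0.208) and Atp5g3 by -0.095 (limma p 0.374), and 8 of the 17 genes were lower.

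In cardiomyocytes 15 of the 17 complex V genes were higher in KD, with a median of 0.077, none of them without overlap. Atp5l, subunit g of the membrane part, read 11.59, 11.09 and 10.50 in WT and 11.56, 11.34 and 11.14 in KD. WT 3 was the lowest array and WT 1 the highest; the difference was 0.29 (SE 0.21) and 0.01 without WT 3. Its 6 probe sets gave differences of 0.18 to 0.29 in cardiomyocytes and -0.26 to -0.23 in hearts. Atp5md, a small subunit also known as DAPIT, read 12.63, 12.25 and 12.37 in WT and 12.48, 12.62 and 12.55 in KD, a difference of 0.13 (SE 0.10) with overlap. Here WT 1 was the highest of all 6 arrays, and without WT 3 the difference was 0.11. Atp5h, subunit d, had the smallest SD of all members between WT cardiomyocyte arrays, at 12.50 ± 0.0059 in WT and 12.50 ± 0.040 in KD (SD, n = 3 each). Without WT 3 the complex V median was 0.019 with 11 of 17 higher, and the complex IV median was 0.010 with 9 of 17 higher. The complex III median, 0.12 on all arrays, was 0.028 without WT 3 and 0.19 without WT 1. Without WT 1 the complex V median was 0.15.

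The muscle and ubiquitous isoforms of complex IV subunits were compared as the log2 ratio of the isoforms within each array, in which a shift of the whole array cancels. The size of such a ratio has no meaning between probe sets, so only its difference between groups is read. Each difference was set against an exact two-sided permutation test over arrays, which cannot go below 0.1 in cardiomyocytes or 0.333 in hearts. Cox6a2, the form of heart and skeletal muscle, against Cox6a1 gave ratios of 3.99, 3.67 and 3.90 in WT cardiomyocytes and 3.77, 3.82 and 3.30 in KD. KD 3 was low, since Cox6a1 read 9.37 there against 8.62 to 8.99 on the other 5 arrays, and the difference was -0.22 (exact permutation p 0.4; 0.533 adjusted over the 4 pairs), or -0.058 without KD 3. The same ratio in hearts was 3.97 and 4.04 for WT but 3.64 and 4.42 for KD, with the KD arrays on either side of WT, a difference of 0.02 (exact permutation p 1). Cox7a1, the muscle form, against Cox7a2 gave 2.33, 2.17 and 2.09 in WT cardiomyocytes and 2.22, 2.23 and 2.21 in KD, a difference of 0.02 (exact permutation p 0.7). WT 1 was the highest there and WT 3 the lowest. The ratio differed by 0.20 in hearts (0.333, the smallest possible). WT hearts had ratios of 1.99 and 2.11, and KD hearts of 2.14 and 2.37. The groups did not overlap; Cox7a2 differed by -0.22 and Cox7a1 by -0.02 (-0.12 and 0.094 after quantile normalization). The ratio's difference was 0.087 without KD 2 and 0.32 without KD 1.

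Cox8b against Cox8a, the muscle and ubiquitous forms of the smallest subunit, gave ratios of 1.64, 1.81 and 1.48 in WT cardiomyocytes and 1.67, 1.75 and 1.95 in KD, a difference of 0.15 (exact permutation p 0.4) that was 0.064 without WT 3 and 0.066 without KD 3. In hearts the ratios were 1.82 and 1.46 in WT and 1.46 and 1.40 in KD, a difference of -0.21 (exact permutation p 0.333), with KD 1 all but level with WT 2. The difference rested on WT 1, without which it was -0.03, and was -0.40 without WT 2. Cox8b itself read 12.34 and 12.15 in WT hearts and 12.05 and 12.00 in KD, a difference of -0.22 that was -0.093 after quantile normalization. Cox8a differed by 0.00 (-0.004; 0.085 after quantile normalization). Cox4i2 is the form of subunit 4 known from lung and low oxygen, and Cox4i1 is the common form. Their ratio was -4.67, -4.89 and -4.62 in WT cardiomyocytes and -4.89, -4.85 and -4.87 in KD, a difference of -0.15 (exact permutation p 0.3) with overlap at WT 2. In hearts it differed by 0.16 (exact permutation p 0.333), or 0.093 without WT 1 and 0.075 after quantile normalization. The heart ratios were -3.20 and -3.05 in WT and -2.99 and -2.94 in KD, without overlap. In WT the ratio of Cox4i2 to Cox4i1 was 1.60 lower in cardiomyocytes than in hearts, at means of -4.72 and -3.13. Cox4i2 itself differed by -1.32 and Cox4i1 by 0.28, against a median of -1.20 over all genes. A shift that depends on signal level does not cancel in such a ratio, and its part here was not tested. For the 3 muscle pairs the WT difference in ratio was -0.15, 0.15 and 0.00 (0.004). These were below or close to the SD of 0.13 to 0.17 between WT cardiomyocyte arrays.

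**Figure D4:**
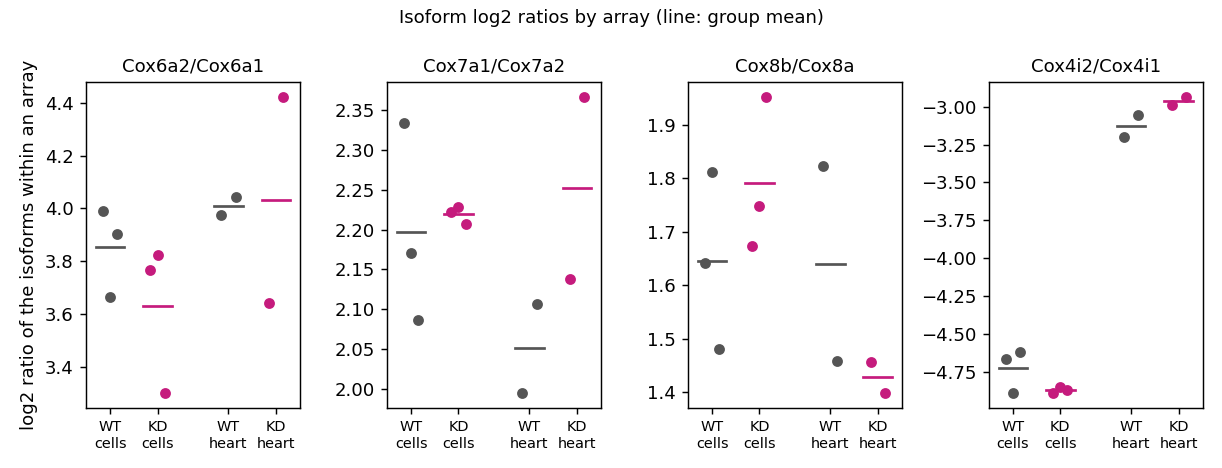
Log2 ratio of 2 isoforms within each array, for the pairs Cox6a2/Cox6a1, Cox7a1/Cox7a2, Cox8b/Cox8a and Cox4i2/Cox4i1; points are arrays (grey WT, magenta KD) and bars are group means, with a separate vertical scale for each pair. Among WT arrays the Cox4i2/Cox4i1 ratio lies near -4.72 in cells and -3.13 in hearts, while the other pairs lie close between the 2 kinds of sample.

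Whether the KD difference itself differed between hearts and cardiomyocytes was tested as the heart difference minus the cardiomyocyte difference. At an adjusted p under 0.05 limma called 0 members and 0% of all genes; the smallest adjusted p was 0.999. In 43 of 47 members the value was below 0, with a median of -0.230, against 0.0052 over all genes. An unadjusted p under 0.05 was reached by 10 members, all below 0, against 1.74% of all genes below 0 and 1.76% above. This count was 19 without WT cardiomyocyte 1, 4 without WT cardiomyocyte 2, 7 without WT cardiomyocyte 3, 2 without KD cardiomyocyte 2, 3 without KD cardiomyocyte 1 and 5 without KD cardiomyocyte 3. Leaving out a heart array gave 2 (WT 1), 12 (WT 2), 5 (KD 1) and 5 (KD 2). After quantile normalization of all arrays it was 1, Uqcrfs1. Uqcrfs1 had the smallest p, with a value of -0.58 (SE 0.15, 95% interval -0.90 to -0.25; limma p 0.00226, adjusted 0.999), followed by Sdhd at -0.46 (SE 0.17; limma p 0.0182). By complex the medians were -0.37 for II, -0.32 for III, -0.20 for IV and -0.16 for V. All these values keep the heart trend on signal level described above, and its part in them was not tested. After quantile normalization the median over all members was -0.122, with 36 of 47 below 0. Without WT cardiomyocyte 3 complex III moved to -0.17 and complex IV to -0.098, and without KD heart 2 complex V moved to -0.26.

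WT cardiomyocytes and WT hearts differ in cell content, in the labelling manuals named and in array medians, and these cannot be told apart, so their comparison is a description. Over all genes the median of cardiomyocytes minus hearts was -1.20. The 47 members had a median of -0.055, and 41 lay above the all-gene median. Relative to all genes the members' median was 1.15, but it was 0.338 after quantile normalization of all arrays. It was 0.098 relative to the mean difference of the ventricular muscle markers, whose median difference was -0.30. Marker lists of other cells lay lower than the members by unequal amounts. The medians were -3.58 for macrophages and -3.08 for fibroblasts. Those of endothelial cells (-1.48), testis (-1.56) and lung epithelium (-1.74) lay closer to the all-gene median of -1.20. The members ranged from -2.21 to 2.43. Uqcr11 stood at the top, at 12.46, 12.11 and 11.02 in cardiomyocytes against 9.37 and 9.50 in hearts, a difference of 2.43 (SE 0.30), or 1.74 by its second probe set. Atp5g1 followed with 13.49, 13.52 and 13.39 against 11.80 and 11.81, a difference of 1.66 (SE 0.10). The other c subunit genes differed by 0.93 (Atp5g2) and 0.00 (Atp5g3, 0.001), so paralogs for the same mature protein spread widely. At the low end were Cox8c, at 5.02 ± 0.043 against 7.23 ± 0.18 (SD; n = 3 and 2), and Atp5c1, at 12.35, 12.24 and 12.40 against 14.12 and 14.10, a difference of -1.77 (SE 0.09).

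**Figure D5:**
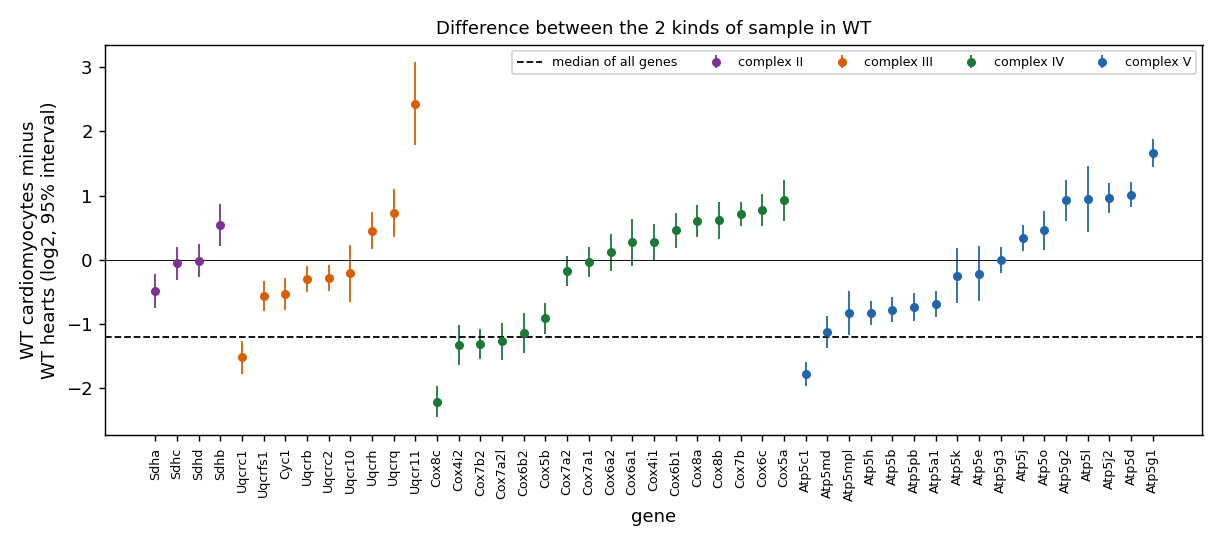
WT cardiomyocytes minus WT hearts for each gene (log2, with the 95% interval from limma; 3 and 2 arrays), ordered within each complex; the dashed line is the median of all genes, -1.20. Of the 47 members 41 lie above the dashed line, with Uqcr11 at 2.43 and Cox8c at -2.21 as the extremes.

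Genes that work with these complexes were counted from lists of the pathway. Of 36 complex I subunits, 31 were higher in KD cardiomyocytes (median 0.089) and 28 lower in KD hearts (median -0.122). Those with the smallest p in cardiomyocytes were Ndufs5, at 0.33 (SE 0.15; limma p 0.0426, adjusted 1.00), and Ndufa2, at 0.28 (SE 0.16). In hearts they were Ndufc2, at -0.45 (SE 0.14; limma p 0.007, adjusted 0.95), and Ndufs1, at -0.44 (SE 0.16). Of the assembly factors of complexes II to V, 35 of 40 were measured; 29 were higher in KD cardiomyocytes (median 0.080) and 26 lower in KD hearts (median -0.113). Cox15, which makes the heme A of complex IV, differed by -0.59 (SE 0.22) in hearts, where WT 1 stood high at 9.61 and KD 2 low at 8.38 while WT 2 (8.97) and KD 1 (9.02) were level. Lrpprc, which stabilises mitochondrial messenger RNAs, differed by -0.37 (SE 0.14) in hearts, while Sdhaf4 and Coa7 differed by 0.42 (SE 0.26) and 0.16 (SE 0.10) in cardiomyocytes.

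Of the electron carriers and inhibitors, which include the enzymes of ubiquinone synthesis, 16 of 17 were measured. Of these, 15 lay lower in KD hearts (median -0.204), and in KD cardiomyocytes 13 were higher, with a median of 0.057. Hccs, which attaches heme to cytochromes c and c1, read 11.04 and 11.00 in WT hearts and 10.71 and 10.43 in KD hearts, a difference of -0.44 (SE 0.12; limma p 0.00355, adjusted 0.94) without overlap. Coq5, a methylase of ubiquinone synthesis, read 10.12 and 10.20 in WT and 9.80 and 9.66 in KD, a difference of -0.43 (SE 0.12; limma p 0.00425, adjusted 0.95), also without overlap. In cardiomyocytes the smallest p of the list belonged to Hccs, at 0.14 (SE 0.10), and Higd1a, at 0.18 (SE 0.15). The 16 regulators of mitochondrial gene expression were divided in cardiomyocytes, where 7 were higher and the median was -0.051, and in hearts 10 lay lower and the median was -0.083. Among them Tfb2m, a factor of mitochondrial transcription, differed by -0.38 (SE 0.15) and its relative Tfb1m by -0.25 (SE 0.15) in hearts. In cardiomyocytes Gabpa differed by -0.20 (SE 0.11) and Esrra, an estrogen-related receptor, by 0.20 (SE 0.14). No gene of these lists was called after adjustment. In hearts 5 complex I subunits, 4 assembly factors, 4 carriers and 1 regulator had an unadjusted limma p under 0.05, all lower. Over all genes 2.49% were lower at that level and 2.44% higher. The heart values of these lists are given with the signal trend left in. In cardiomyocytes the counts in the same order were 1, 0, 0 and 0, against 0.988% of all genes higher. The 1 was Ndufs5, which was higher.

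Markers of other cells also differed between KD and WT means, some higher and some lower. In KD hearts all 9 thymocyte and all 6 T cell markers were higher (medians 1.60 and 0.64, carried by KD 1), as were both measured red cell markers (0.66). All 6 atrial, all 8 fibroblast and all 7 endothelial markers lay lower, with medians of -0.76, -0.29 and -0.20. So did all 5 smooth muscle, all 5 adipocyte and all 10 ventricular muscle markers, with medians of -0.09, -0.20 and -0.13. The macrophage, brown adipocyte, skeletal muscle, lung epithelium, nerve and testis lists held both directions. These heart values are given with the signal trend left in. In KD cardiomyocytes all 10 macrophage markers were lower (median -0.27), with means of 5.33 to 5.46 in KD and 5.39 to 6.02 in WT, where WT 3 was the highest. On every array but WT 3 this mean lay under the array medians of 5.82 to 5.93. Relative to the mean of WT 1 and 2, the macrophage markers had a median of 0.41 on WT 3 in cardiomyocytes. The 10 ventricular muscle markers were level there, with a median of 0.00 and 5 higher. None of these markers was called, and their part in the members' values was not tested. Over all members the heart median was -0.131 with 32 lower when KD 1 was left out and -0.183 with 44 lower when KD 2 was left out.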

How the data were processed

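Arrays of 3 WT and 3 KD cardiomyocyte samples and of 2 WT and 2 KD heart samples were analysed, grouped by their labels. The value table deposited by the authors holds log2 values for 35556 probe sets. RMA and Partek are named, per the submitters' processing notes; no version is given in the sources used here. As a method, RMA makes arrays treated together alike in distribution and compresses differences of dim probes. Because heart arrays had higher medians than cardiomyocyte arrays, KD and WT were compared within a kind of sample. The labelling manuals named also differ between the 2 kinds. A single symbol was given for 21789 probe sets, several for 1621 and none for 12146, and only the first kind was used; the 47 members had 67 probe sets, and 12 members had more than 1. All 10 arrays were fitted in limma 3.58.1 (R 4.3.3) with 4 group means and eBayes with an intensity trend (6 residual and 6.81 prior degrees of freedom), two-sided, with Benjamini-Hochberg adjustment over 19938 genes at 0.05. Isoform ratios used exact permutation tests. The code was first tested on simulated data.

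Members with values by array (in the kind of sample that named them, or as ratios) are the 2 members of each complex with the smallest p in each kind of sample, the isoform pairs, the 2 with the smallest p for the difference between effects, the 2 highest and 2 lowest between kinds of sample, and, from each pathway list, the 2 with the smallest p in each kind of sample (differences, by array for some); other members are named with their differences. The members, lists, tests and alternatives were chosen with earlier results of these data known. Alternatives were quantile normalization, centring, a filter on dim genes (under the 30th percentile), averaging all probe sets of a gene, array weights, other eBayes settings, a replicate block, an adjusted p of 0.1, fits on 1 kind of sample, removal of a loess trend on signal (span 0.3) and leaving out each array. Promoter windows came from RefSeq's GRCm38.p6 table; 0 columns of the value table matched no sample.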

Additional observations from a re-analysis of the deposited data

How the results depend on the processing

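No member was called under any alternative, and the median of all members kept its sign in each, in cardiomyocytes, in hearts and for the difference between effects. In hearts that median was -0.026 after quantile normalization of all arrays, -0.130 after centring on array medians, -0.124 with the filter on dim genes and -0.013, with 25 members lower, without the signal trend. It ranged from -0.183 to -0.087 when each heart array was left out. The median difference between the effects was -0.122 after quantile normalization. Relative to all genes, the members' WT cardiomyocyte minus WT heart median was 0.338 under quantile normalization and 1.02 under the dim filter. Centred on the mean difference of the ventricular markers, it was 0.098. The Cox4i2/Cox4i1 difference in hearts was 0.075 after quantile normalization. Leaving out each array gave the Cox6a2/Cox6a1 difference in hearts a range of -0.37 to 0.41 and the Cox7a1/Cox7a2 difference in cardiomyocytes one of -0.033 to 0.090. Whether the same replicate number pairs the arrays was not settled. Deviations of same-numbered WT and KD arrays correlated at 0.152, 0.131 and -0.052 in cardiomyocytes, and those of different-numbered arrays at -0.188 to 0.066. In hearts, where only 2 pairs exist, same numbers gave 0.234 and different numbers -0.234. With 2 arrays a group these are bound to match in size. With the replicate block, all members' medians were the same by construction, 600 genes in cardiomyocytes and 1317 in hearts had an unadjusted p under 0.05 (419 and 982 without it), and 1 gene, not a member, was called in hearts. Over all genes, between 0 and 303 were called in hearts and between 0 and 237 for the difference between effects when each array was left out, 303 and 237 without KD heart 2; 0 of these were members.

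Among the 26 members with full values the sign of an uncalled difference held in all alternatives for 16 in cardiomyocytes, 15 in hearts and 21 for the difference between effects. In cardiomyocytes it turned after quantile normalization (Sdha -0.025, Cox6c -0.022), with array weights (Sdha -0.048) and without the signal trend (Sdha -0.0082, Cox6c -0.010, Cox6a2 -0.0027). In hearts it turned after quantile normalization (Cox6b1 0.042, Cox7a1 0.094, Cox8a 0.085, Cox4i1 0.044, Atp5c1 0.024, Atp5g1 0.070), without the signal trend (Cox6b1 0.036, Cox7a1 0.12, Cox8a 0.094, Cox4i1 0.042, Atp5c1 0.069, Atp5g1 0.090) and after centring (Uqcr11 -0.029). For the difference between effects it turned after quantile normalization (Cox8a 0.023, Atp5c1 0.022). Leaving out each array gave ranges across 0 in cardiomyocytes (Sdha -0.050 to 0.088, Sdhd -0.037 to 0.089, Cox4i2 -0.069 to 0.15, Atp5c1 -0.0011 to 0.077, Sdhb -0.038 to 0.23, Uqcr10 -0.0093 to 0.44, Uqcrc2 -0.043 to 0.054, Cox6a2 -0.057 to 0.11, Cox8a -0.0035 to 0.16), in hearts (Uqcr11 -0.21 to 0.22, Cox6a2 -0.15 to 0.27, Cox6a1 -0.14 to 0.21, Cox7a1 -0.096 to 0.057, Cox6b1 -0.22 to 0.042, Cox8a -0.093 to 0.085, Cox8c -0.18 to 0.073, Cox4i1 -0.18 to 0.037, Atp5g1 -0.18 to 0.11, Cox4i2 -0.040 to 0.23) and for the difference between effects (Cox6a2 -0.17 to 0.25, Cox4i2 -0.062 to 0.22, Cox8a -0.16 to 0.021, Atp5g1 -0.24 to 0.046). The cause of these turns was not tested; the number of arrays limits what can be seen.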

Other observations

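Cox7c, a complex IV subunit, was not among the members because its 3 probe sets also carry the symbol of a predicted gene, Gm12338, from which its signal cannot be told apart. On the first of them the log2 values were 13.29, 13.25 and 13.35 in WT cardiomyocytes and 13.29, 13.35 and 13.28 in KD cardiomyocytes, so the groups were level. In hearts the same probe set read 12.18 and 12.10 in WT and 11.99 and 11.92 in KD, with both KD arrays below both WT arrays. The 3 probe sets differed between KD and WT by 0.006 to 0.018 in cardiomyocytes and by -0.188 to -0.173 in hearts.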
